A study of Mus musculus with 24 samples.

Results

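The uncoupling proteins are 3 mitochondrial carriers, encoded by Ucp1, Ucp2 and Ucp3, and were taken by gene symbol from tables that list 37041 genes. RNA sequencing of 24 libraries was examined, in 8 groups of 3. The 18 C2C12 libraries came from a mouse myoblast line that fuses into muscle fibres in culture, either as control cells or with expression of NFIA, a nuclear factor I protein that binds DNA. Both kinds of cell were taken on day 0 and on day 7, the latter with or without 10 µM forskolin for 4 h, which activates adenylyl cyclase and so raises cAMP. The 6 tissue libraries were from brown adipose tissue of mouse neonates, 3 wild-type and 3 labelled NFIA-KO. The vector that carried NFIA, the content of the control cells, the strain, age and sex of the neonates, the number of animals in a library and the deleted part of the Nfia gene were not given in the sources used here. Nothing says that replicates came from separate cultures or animals, so p-values measure the spread between these libraries, which may be technical.

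UCP1 sits in the inner mitochondrial membrane of brown adipocytes and lets protons return without making ATP, so that the energy of respiration is released as heat. Noradrenaline drives it through beta-adrenergic receptors, cAMP and protein kinase A, which frees the fatty acids that activate the protein and raises transcription of its gene. UCP2 is made in many tissues and exports metabolites from mitochondria, and UCP3 is found mainly in skeletal muscle and brown fat, with a role tied to fatty acid use that is less settled. Neither is thought to produce heat as UCP1 does.

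The deposited loci, in mm9, place Ucp1 (ENSMUSG00000031710.3) on chromosome 8 from 85814247 to 85822355. Ucp3 (ENSMUSG00000032942.8) lies on chromosome 7 from 107621499 to 107634941 and Ucp2 (ENSMUSG00000033685.5) from 107641846 to 107650529, so the pair is separated by 6904 bases. All 3 are protein-coding genes on the forward strand. The 250 bases before the start of each gene are printed because both treatments act on transcription, forskolin through factors such as CREB and NFIA as a DNA-binding factor. They are from RefSeq on GRCm38.p6, forward strand, at chr8:83290098-83290347 for Ucp1, chr7:100493108-100493357 for Ucp2 and chr7:100472741-100472990 for Ucp3. Capitals mark TGACG, the core of the cAMP response element, or its complement CGTCA.

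Ucp1: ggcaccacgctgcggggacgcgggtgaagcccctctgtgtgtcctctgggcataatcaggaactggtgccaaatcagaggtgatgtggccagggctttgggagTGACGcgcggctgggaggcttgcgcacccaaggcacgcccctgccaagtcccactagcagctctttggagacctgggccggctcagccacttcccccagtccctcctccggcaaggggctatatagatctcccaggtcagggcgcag

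Ucp2: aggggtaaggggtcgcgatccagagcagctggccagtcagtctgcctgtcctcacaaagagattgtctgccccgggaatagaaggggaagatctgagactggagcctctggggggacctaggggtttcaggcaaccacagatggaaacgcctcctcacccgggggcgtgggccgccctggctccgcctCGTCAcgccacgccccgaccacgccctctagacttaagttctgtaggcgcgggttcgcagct

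Ucp3: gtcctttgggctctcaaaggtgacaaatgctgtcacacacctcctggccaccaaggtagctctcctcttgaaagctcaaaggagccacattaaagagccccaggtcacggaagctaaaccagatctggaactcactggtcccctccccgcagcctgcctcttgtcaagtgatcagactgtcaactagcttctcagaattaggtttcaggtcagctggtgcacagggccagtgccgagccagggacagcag

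On both strands, TGACG was present once in the Ucp1 stretch, beginning 147 bases before the start, and once in the Ucp2 stretch, as CGTCA, 62 bases before the start. In Ucp3 no TGACG was found before the start, and the single match in its 300-base window lay past it. The full palindrome TGACGTCA, of which TGACG is a part, was in none of the 3 windows. TGACG was found in 20.8% of 32851 mouse promoter windows of the same length and TGACGTCA in 1.79%. The nuclear factor I core TTGGC had 2 matches for Ucp1, as GCCAA at 183 and 105 bases before the start, and none for Ucp2 or Ucp3, against 46.7% of all windows. AGGTCA, the hexamer of nuclear receptors such as PPAR and thyroid hormone receptors, began 14 bases before the Ucp1 start and 149 and 44 bases before the Ucp3 start, against 16.3% of all windows. The E-box CANNTG, the form bound by myogenic factors, had 2 matches for Ucp2, 3 for Ucp3 and 0 for Ucp1, and 72.3% of all windows hold it. These are matches of letters in a short window, and the known enhancer of Ucp1 lies farther upstream.

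Expression was given as FPKM, which corrects fragment numbers for transcript length and for library size, so levels can be set side by side between genes of a library. A library's FPKM summed to between 762822 and 1575522, and 17304 to 21410 genes were above 0. The libraries thus have no common total, and levels given for cells beside tissue are of FPKM as deposited, without rescaling. Read totals are not given, and depth is therefore unknown. The lowest value above 0 among 4173 short genes, a rough sign of what few fragments are worth, was 0.06 to 0.87 FPKM and was highest in NFIA replicate 2 with forskolin. Differences are of log2(FPKM + 1) with their SE, which understate changes of genes at low FPKM. They were tested with limma across all genes with at least 1 FPKM in at least 3 libraries, with Benjamini-Hochberg adjustment. Calls required an adjusted p below 0.05. Ucp2 and Ucp3 passed this filter in both fits. Ucp1 passed it in C2C12 cells only through the 3 NFIA libraries with forskolin, the group in which it was high.

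Nfia checks the labels. It read 0.26 to 2.23 FPKM in the 9 control libraries whereas NFIA cells had 1269 ± 15.6 (SD, n = 3) on day 0, 3343 ± 212 on day 7 and 9852 ± 608 with forskolin. In tissue it was not lower in the libraries labelled NFIA-KO, at 44.58, 40.13 and 39.43 FPKM against 24.34, 32.82 and 32.58 in wild-type (0.47 ± 0.15; limma adjusted p = 0.097). A gene-level FPKM does not show which exons gave the reads, so it cannot check a deletion of part of the gene, and each tissue direction below rests on the label.

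The 3 genes differed in where they were made. In every C2C12 group Ucp2 was the main uncoupling protein, with at least 96.8% of their summed FPKM in each library. In brown fat Ucp1 led, with 90.4 ± 3.81% of the sum in wild-type tissue and 88.4 ± 5.59% in tissue labelled NFIA-KO. Ucp3 never exceeded 0.579% of the sum in tissue. Cells and tissue differ in source, so these levels are set side by side with no test.

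**Figure D1:**
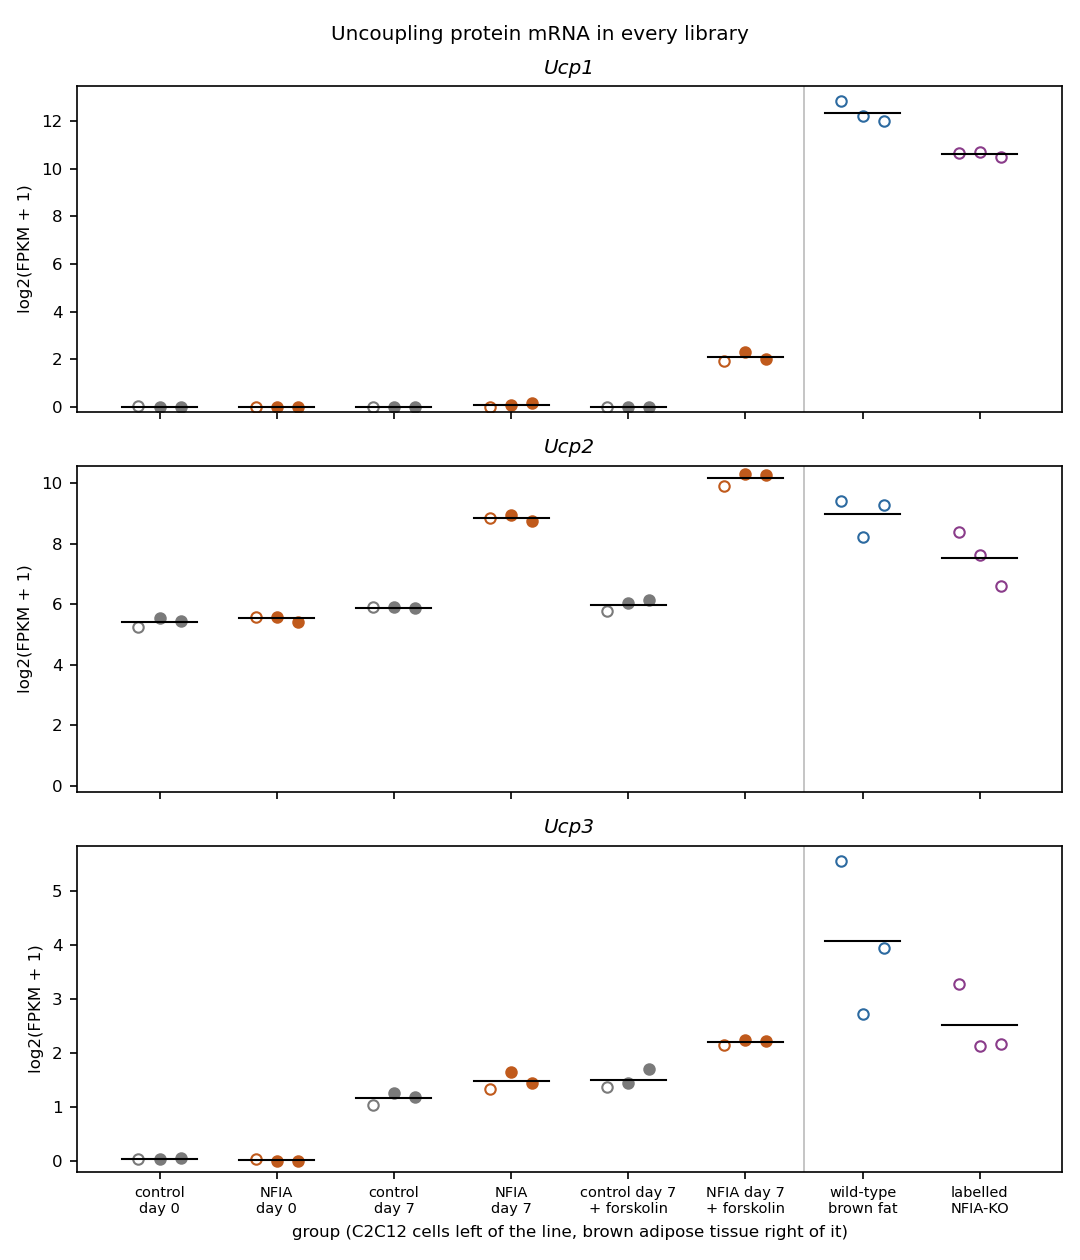
Each point is a library and each line a group mean of log2(FPKM + 1), with a separate scale for each gene. Filled points carry the later of the 2 dates in the table headers. Ucp1 lies near 0 in the C2C12 groups except NFIA cells with forskolin, where it stays below both tissue groups. In FPKM as deposited, Ucp2 in those cells lies above both tissue groups.

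Ucp1 was at or near 0 in C2C12 cells and passed 1 FPKM in none of them but those with both NFIA and forskolin. It was listed at 0 in all 3 control libraries at day 7, in all 3 with forskolin and in all 3 NFIA libraries at day 0, and at 0.02, 0 and 0 FPKM in control cells at day 0. In NFIA cells at day 7 it read 0.01, 0.05 and 0.13 FPKM, above the control libraries by an amount that did not pass the test (0.09; adjusted p = 0.59 with no filter). With forskolin it read 2.75, 3.95 and 3.06 FPKM in NFIA cells, above every other C2C12 library. All 3 NFIA libraries with forskolin thus lay above all 3 without it, whereas all control libraries at day 7 were listed at 0 with and without it.

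The difference in Ucp1 between NFIA and control cells with forskolin was 2.08 on the log2(FPKM + 1) scale. Since the filter kept Ucp1 only through that group, its p-values here are from limma on every gene with no filter, where the difference was called (adjusted p = 6.4e-11). No fold is given, since the control group is listed at 0. Forskolin raised it by 1.99 within NFIA cells (adjusted p = 7.9e-10), and the response differed from that of control cells by the same 1.99 (interaction, adjusted p = 6.1e-08). The fit pools the spread of all C2C12 groups, and in the others Ucp1 was at or near 0 with little or no spread. These p-values therefore do not measure the spread of NFIA libraries with forskolin alone. With a pseudocount of 0.1 in place of 1, the difference between NFIA and control cells was 5.05 and the response 4.41. In the C2C12 libraries of the later header date alone, with the filter set at 2 libraries, the difference was 2.16. The level reached, 3.25 ± 0.623 FPKM, was far below the 1571 ± 116 and 5355 ± 1667 FPKM of the tissue groups. Nfia itself was higher with forskolin than without in these cells (above), and the part of that difference in the Ucp1 response was not tested.

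Ucp2 was present in every library and was higher with NFIA at day 7 but not detectably at day 0. Control cells had 36.96, 46.11 and 42.83 FPKM at day 0 and NFIA cells 46.83, 47.22 and 41.53, with overlapping values (0.11 ± 0.12; 95% interval -0.15 to 0.36; adjusted p = 0.61). At day 7 control cells read 58.74, 58.4 and 57.59 FPKM and NFIA cells 456.25, 495.48 and 431.93. Every NFIA library lay above every control library, with a difference of 2.96 ± 0.12 (7.79-fold of FPKM + 1; adjusted p = 1.4e-11) that ranked 427 of 14351 genes by size. The cells themselves differed in kind at this time: 9 of 9 adipocyte markers tested were higher in NFIA cells and 0 lower (median 6.77). Of 15 muscle markers 0 were higher and 15 lower (100% called in both lists, against 55.5% of all genes). Adipoq, Plin1, Cidec, Retn and Cfd passed the filter only through NFIA cells at day 7, with or without forskolin, so the filter fixed their direction. The part of this difference in kind in the Ucp2 and Ucp3 differences was not tested.

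With forskolin Ucp2 stood at 53.7, 65.15 and 69.04 FPKM in control cells and at 967.82, 1274.52 and 1226.43 in NFIA cells. This was its largest difference, 4.18 ± 0.12 (18.2-fold of FPKM + 1; adjusted p = 2.6e-13). In FPKM as deposited, Ucp2 was also higher in these NFIA cells than in any tissue library, where the highest value was 686.68 FPKM. All FPKM of a library summed to 941965, 1575522 and 1478370 in these NFIA libraries and to at most 845621 in tissue. Cells and tissue were not rescaled to a common sum, so this order rests on unscaled FPKM. The NFIA effect on Ucp2 was larger at day 7 than at day 0 by 2.85 ± 0.17 (interaction, adjusted p = 2.6e-09).

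Forskolin changed Ucp2 in NFIA cells. In control cells the difference was 0.10 ± 0.12, with an interval of -0.16 to 0.35 (adjusted p = 0.94). In NFIA cells it rose by 1.32 ± 0.12 (2.49-fold of FPKM + 1; adjusted p = 8.5e-07). The interaction was 1.22 ± 0.17 (adjusted p = 1.1e-04), beside the same difference in Nfia, whose part was not tested here either. Over the 7 days without forskolin, Ucp2 rose by 0.47 ± 0.12 in control cells (adjusted p = 0.0046) and by 3.32 ± 0.12 in NFIA cells (adjusted p = 4.2e-12).

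Ucp3, the muscle-associated member, rose with time in both kinds of cell and was changed less by NFIA. On day 0 it was at 0.03, 0.02 and 0.04 FPKM in control cells, with 0.02, 0 and 0 in NFIA cells. At day 7 control cells read 1.06, 1.4 and 1.28 FPKM and NFIA cells 1.53, 2.13 and 1.72, with no overlap. The rise over 7 days was 1.12 ± 0.10 in control cells (adjusted p = 1.6e-07) and 1.47 ± 0.10 in NFIA cells (adjusted p = 3.9e-09). With a pseudocount of 0.1 these rises were 3.37 and 4.14. The 15 muscle markers had a median difference of -2.60 between NFIA and control cells at day 7, whereas Ucp3 was higher by 0.31 ± 0.10 (adjusted p = 0.012). That Ucp3 call was lost without control replicate 1 (0.25; adjusted p = 0.058) or without NFIA replicate 2 (0.23; adjusted p = 0.069).

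With forskolin Ucp3 read 1.59, 1.72 and 2.26 FPKM in control cells and 3.42, 3.75 and 3.64 in NFIA cells, again without overlap (0.69 ± 0.10; adjusted p = 1.3e-05). In NFIA cells forskolin raised it by 0.73 ± 0.10 (adjusted p = 3.4e-05), and the control difference of 0.34 ± 0.10 did not pass (adjusted p = 0.065) although the libraries did not overlap. The responses did not differ at the threshold (interaction 0.38 ± 0.13; adjusted p = 0.060). Both values passed with the date of the table header as a term (adjusted p = 0.018 and 0.021, from limma). The NFIA effect on Ucp3 was larger at day 7 than at day 0 by 0.34 ± 0.13 (adjusted p = 0.0497), a call that ended with no expression filter (adjusted p = 0.12) and without most single libraries.

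The members are to be read against how many genes moved. Ucp1 is left out of these counts in C2C12 cells, since the filter chose it by the group where it was high. At day 0, 21.2% of tested genes were called between NFIA and control cells, and neither Ucp2 nor Ucp3 was. By day 7 this was 55.5% without forskolin, with Ucp2 and Ucp3 called, and 61.6% with it, with both called. The change from day 0 to day 7 was called for 48.9% of genes in control cells and 56.9% in NFIA cells, each with Ucp2 and Ucp3. Forskolin changed 3.97% of genes in control cells and neither member, and 32.6% in NFIA cells and both. The NFIA effect differed between days for 45.3% of genes, among them both members, and the forskolin response between cells for 20.1%, among them Ucp2. With comparisons that share groups and such backgrounds, a call alone sets no member apart.

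**Figure D2:**
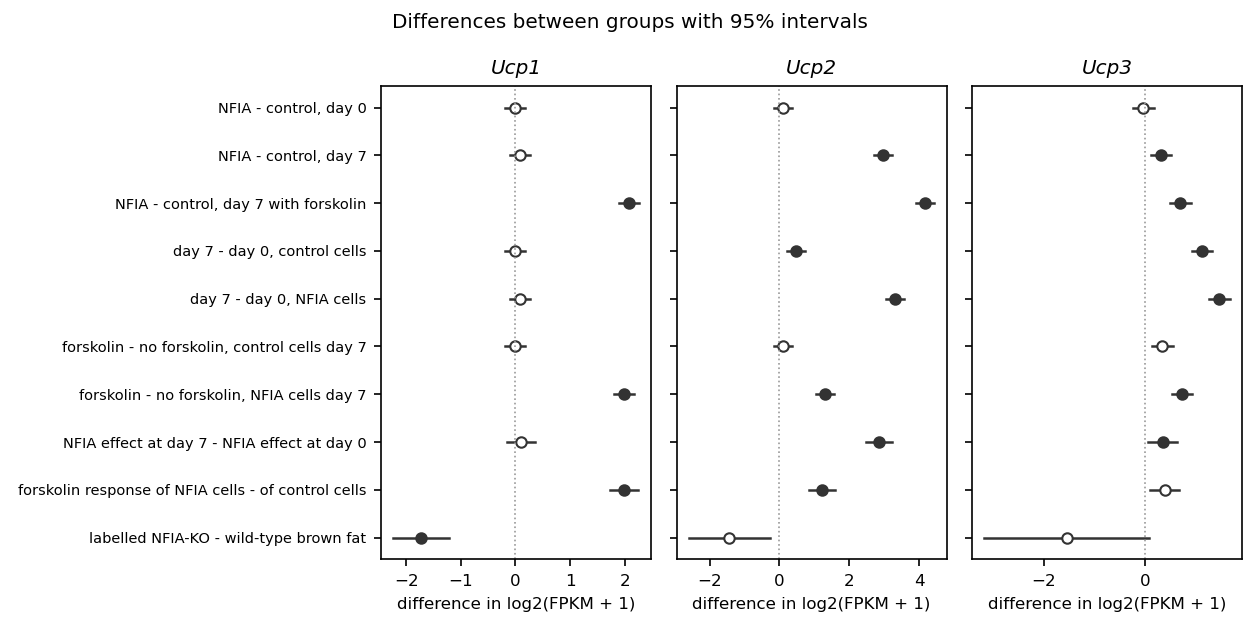
Points are differences in log2(FPKM + 1) and bars their 95% intervals in 10 comparisons, filled where the limma adjusted p was under 0.05 after the filter, which kept Ucp1 in cells only through NFIA libraries with forskolin; each gene has its own horizontal scale. Forskolin differences are at 0 for Ucp1 and close to 0 for Ucp2 in control cells and above 1 for both in NFIA cells.

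In brown fat Ucp1 was lower in the libraries labelled NFIA-KO. Wild-type tissue read 7239.59, 4752.71 and 4072.98 FPKM and the labelled libraries 1594.21, 1673.82 and 1444.68, with no overlap and a wider spread in wild-type. The difference was -1.73 ± 0.21 (95% interval -2.23 to -1.22; limma adjusted p = 0.018), a ratio of means of 0.293. Between these groups 7.14% of 13618 tested genes were called. The Ucp1 call held without each library in turn and ended with no expression filter (adjusted p = 0.13).

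Ucp2 and Ucp3 were lower on average in the labelled libraries, but neither passed and both overlapped between groups. Ucp2 read 686.68, 296.07 and 624.14 FPKM in wild-type tissue and 330.53, 198.47 and 96.19 in the labelled libraries (-1.44 ± 0.49; interval -2.59 to -0.28; adjusted p = 0.11). For Ucp3 the wild-type values were 46.18, 5.59 and 14.46 FPKM, spread over a wide range, against 8.7, 3.4 and 3.49 (-1.55 ± 0.69; interval -3.18 to 0.08; adjusted p = 0.19). The share of Ucp1 in the family sum overlapped between the groups, at 86.4 to 94.0% in wild-type and 82.5 to 93.5% in the labelled libraries. The sum of the 3 was 5913 ± 1792 FPKM in wild-type tissue and 1785 ± 210 in the labelled libraries.

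Muscle RNA moved with the tissue labels. Of 12 skeletal muscle markers tested, 9 were higher in the libraries labelled NFIA-KO and 0 lower (75% called, against 7.14% of all genes), with a median of 2.97. Their summed FPKM was 2262, 358.9 and 1211 in the labelled libraries against 71.7, 75.9 and 167.5 in wild-type, and none of the 15 was at 0 in any tissue library. Acta1, the actin of skeletal muscle, read 603.97, 89.84 and 286.71 FPKM against 15.67, 12.8 and 41.94. The part of muscle RNA in the tissue differences was not tested. In bulk tissue, fewer brown adipocytes and less Ucp1 RNA per brown adipocyte cannot be told apart.

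Of the brown adipocyte markers 0 of 12 were higher and 4 lower (33.3% called, against 7.14% of all genes), with a median of -0.62. Their summed FPKM was 4778 to 6275 in the labelled libraries against 7784 to 9091 in wild-type. Without Cox8b, left out after its values were seen, the sums were 3931, 5344 and 4859 against 4962, 4971 and 4086, and the groups overlapped. These sums rest mainly on Cidea and Cox7a1, so they hide markers at lower FPKM. Cox7a1, Otop1, S100b and Elovl3 were also lower in the labelled libraries without overlap. Kcnk3 and Ppargc1a were higher there without overlap. Cox8b, a cytochrome oxidase subunit of brown fat and muscle, fell from 3776 ± 321 to 882 ± 43.5 FPKM (-2.09 ± 0.11; adjusted p = 0.0012), whereas Cidea, a lipid droplet protein of brown adipocytes, read 2791 ± 529 against 2120 ± 140 in wild-type (0.38 ± 0.16; adjusted p = 0.18). Of the general adipocyte markers 0 of 9 were higher and 1 was lower (11.1% called, against 7.14%). Their sum ranged from 16454 to 19711 FPKM in the labelled libraries and from 4453 to 26888 in wild-type, where Fabp4 is listed at 0 in replicate 3 and at 23064 and 21230 FPKM in the other 2. No immune (12 tested), endothelial (8) or erythroid (7) marker was called, beside 7.14% of all genes. Sums were 102 to 204 against 94.7 to 132, 430 to 504 against 468 to 576 and 4444 to 8457 against 4250 to 5615 FPKM.

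**Figure D3:**
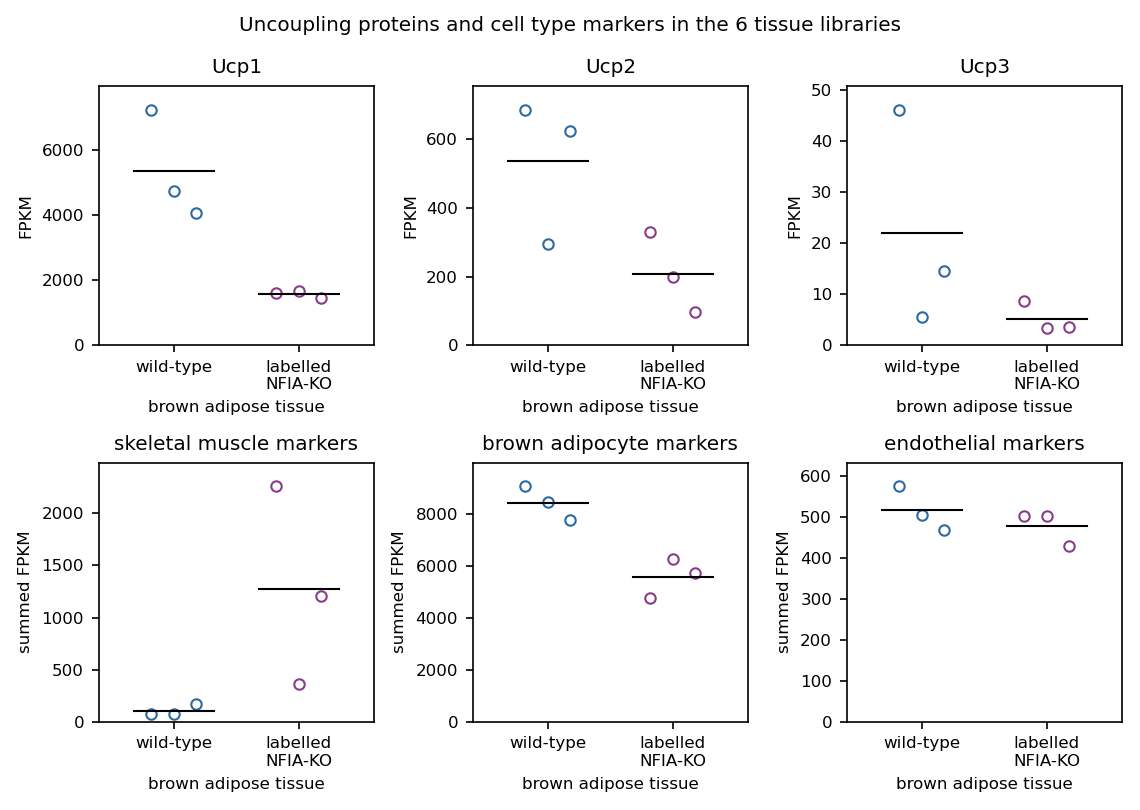
Each point is a tissue library and each line a group mean, in FPKM for the genes and in summed FPKM for the marker lists. Ucp1 is lower and the muscle sum higher in all 3 libraries labelled NFIA-KO, the lower brown adipocyte sum overlaps between groups once Cox8b is left out, and the Ucp2, Ucp3 and endothelial values overlap.

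The transcription factors and cofactors that act on Ucp1 changed in both directions with NFIA in cells. Of 16 tested, 9 were higher and 4 lower at day 7 (81.2% called, against 55.5% of all genes, with medians of 0.56 and -0.03). With forskolin 9 were higher and 1 lower (62.5% called, near the 61.6% of all genes, with a median of 1.04). Of the 16, Irf4 passed the filter only through NFIA libraries with forskolin, the group in which it was high. Pparg, the nuclear receptor that directs fat cell formation, rose from 2.22 ± 0.162 to 52.7 ± 1.13 FPKM at day 7, and Cebpa, its partner, from 5.77 ± 0.951 to 144 ± 34.3. Tfam, which maintains mitochondrial DNA, read 48.9 ± 3.55 FPKM without and 46.3 ± 4.85 with NFIA (-0.08 ± 0.12; adjusted p = 0.61).

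Ppargc1a, the coactivator that couples cAMP to Ucp1 transcription, was raised by NFIA alone and more by NFIA with forskolin. It read 0.64, 0.49 and 0.79 FPKM in control cells at day 7, 1.29, 1.29 and 1.27 with forskolin, 5.27, 5.07 and 4.34 in NFIA cells, and 70.3, 65.08 and 66.81 in NFIA cells with forskolin. Its forskolin response was larger in NFIA than in control cells by 3.06 ± 0.12 (interaction, adjusted p = 2.4e-10). Irf4, a partner of PGC-1alpha in thermogenic transcription, was at most 0.06 FPKM in the other C2C12 groups and at 1.23, 1.41 and 1.14 in NFIA cells with forskolin. With forskolin 8 of these 16 factors were called higher and 5 lower in NFIA cells (81.2%, against 32.6% of all genes). In control cells 1 was called higher and 1 lower (12.5%, against 3.97%). The 16 include Irf4, which the filter kept only through the NFIA libraries with forskolin.

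In tissue these factors had no common direction. Of 20 tested, 3 were higher and 2 lower in the libraries labelled NFIA-KO (25% called, against 7.14% of all genes), with a median of 0.00. Irf4 read 519.83, 322.22 and 115.58 FPKM there against 0.55, 5.55 and 0.34 in wild-type, a difference of 6.82. It passed the filter only through the labelled libraries, where it was high. No p-value is therefore given for it, though the count of 3 includes it. Cebpa went the other way, at 28.2 ± 11.1 against 118 ± 30.2 FPKM (-2.06 ± 0.30; adjusted p = 0.022). Ppargc1a read 44.7, 34.27 and 35.74 FPKM against 18.37, 27.83 and 10.78, higher without overlap but short of the threshold (1.06 ± 0.31; adjusted p = 0.080), and Pparg read 142 ± 8.20 against 136 ± 64.4.

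**Figure D4:**
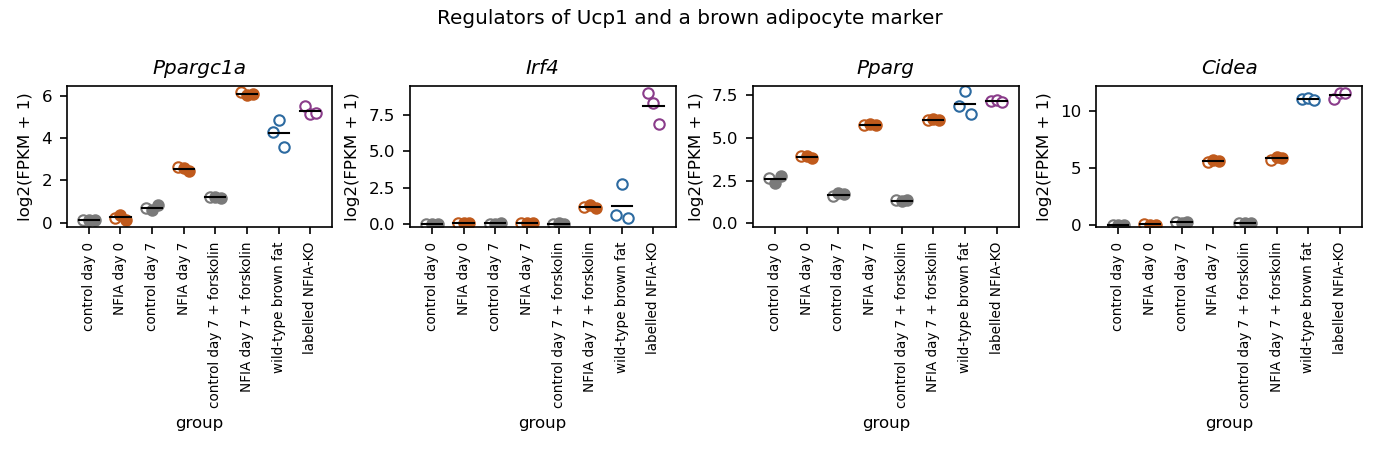
Each point is a library and each line a group mean of log2(FPKM + 1) for 3 factors that act on Ucp1 and for the brown adipocyte marker Cidea. Ppargc1a, Pparg and Irf4 are highest among C2C12 groups in NFIA cells with forskolin, and Irf4 is higher in tissue labelled NFIA-KO than in wild-type.

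Genes that repress Ucp1 changed both ways as well. Of 8 tested at day 7, 4 were higher and 2 lower, with the same counts under forskolin (75% called in each, against 55.5% and 61.6% of all genes, with medians of 0.33 and 0.09). Nr1h3, the sterol receptor LXRalpha, rose from 0.637 ± 0.353 to 44.3 ± 4.52 FPKM, and Nrip1, the corepressor RIP140, from 3.20 ± 0.530 to 29.5 ± 4.48. In tissue 0 of 9 were called by limma, where 7.14% of all genes would be under 1 gene.

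The adrenergic and cAMP genes upstream of Ucp1 were divided. At day 7, 6 of 17 were higher and 6 lower in NFIA cells, and with forskolin 10 were higher and 4 lower. The shares called were 70.6% and 82.4%, against 55.5% and 61.6% of all genes. Prkar2b, a regulatory subunit of protein kinase A, rose from 25.7 ± 0.750 to 273 ± 23.3 FPKM at day 7, while Prkar1a, another, fell from 477 ± 13.8 to 134 ± 8.84. In tissue 2 of 18 were called (11.1%, against 7.14%), with a median of -0.02.

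Genes that deliver fatty acids to uncoupling or control that supply were nearly all higher with NFIA. The list also holds genes that restrain the supply, such as G0s2, so its counts give no direction of supply. At day 7, 16 of 18 were higher and 0 lower (88.9% called, against 55.5% of all genes), with a median of 3.66. Among them Plin1 passed the filter only through NFIA cells at day 7, with or without forskolin. Fabp4, the fatty acid carrier of adipocytes, rose from 4.30 ± 2.52 to 22388 ± 1058 FPKM and Pnpla2, the lipase that starts lipolysis, from 24.1 ± 2.93 to 809 ± 121. G0s2, which inhibits that lipase, fell with forskolin in NFIA cells from 771 ± 209 to 151 ± 37.3 FPKM (-2.34 ± 0.34; adjusted p = 8.1e-05). In tissue 0 of 18 were higher and 4 lower in the labelled libraries (22.2% called, against 7.14%), with a median of -0.78. G0s2 read 2.11, 1.49 and 4.71 FPKM there against 322.2, 38.24 and 737.18, well separated in spite of the wide wild-type spread.

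Other carriers of the mitochondrial inner membrane changed in both directions. Of 12 tested, 5 were higher and 2 lower in NFIA cells at day 7 (58.3% called, near the 55.5% of all genes) and 6 and 3 with forskolin (75%, against 61.6%). Slc25a10, the dicarboxylate carrier, rose from 11.6 ± 2.14 to 510 ± 109 FPKM at day 7. Slc25a30, a close relative of the uncoupling proteins, rose in NFIA cells from 21.2 ± 0.838 to 55.2 ± 3.59 with forskolin and read 16.8 ± 0.811 without and 16.0 ± 1.05 with it in control cells (interaction 1.40 ± 0.10; adjusted p = 1.2e-07). Slc25a3, the phosphate carrier, read 363 ± 33.4 FPKM without and 388 ± 39.6 with NFIA at day 7 (0.10 ± 0.11; adjusted p = 0.50). In tissue 1 of 11 was called (9.09%, against 7.14% of all genes). This was Slc25a25, an ATP-magnesium/phosphate carrier, at 42.61, 21.9 and 24.23 FPKM against 5.97, 3.13 and 8.93.

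Routes of heat production that do not use Ucp1 were mixed. At day 7, 4 of 12 genes were higher and 7 lower in NFIA cells (91.7% called, against 55.5% of all genes). Gpd1, of the glycerol phosphate shuttle, rose from 7.15 ± 0.849 to 746 ± 79.5 FPKM, while Atp2a1, the calcium pump of fast muscle, fell from 660 ± 29.3 to 112 ± 8.69. Alpl, a phosphatase placed in the futile creatine cycle, rose with forskolin in NFIA cells from 7.63 ± 3.64 to 158 ± 33.1. In tissue Gpd1 fell with Ucp1, from 3264 ± 582 to 1462 ± 494 FPKM (-1.19 ± 0.25; adjusted p = 0.041). The 3 called higher there, Sln, Atp2a1 and Ckmt2, are muscle genes and stand beside the muscle markers above. Of this list 33.3% was called in tissue, against 7.14% of all genes.

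Around Ucp2 and Ucp3 on chromosome 7, the gene just past Ucp2 had its highest C2C12 values in the same group. Dnajb13, a co-chaperone gene of the opposite strand known from sperm and cilia, begins 997 bases past the end of the Ucp2 locus. It read 0.06, 0.05 and 0.14 FPKM in control and 0.79, 0.7 and 0.67 in NFIA cells at day 7. With forskolin it read 0.02, 0.02 and 0.01 FPKM in control and 3.91, 4.06 and 3.83 in NFIA cells. It passed the filter in C2C12 cells only through this last group, so no test is given for it there. In tissue it was at 2.15 FPKM in wild-type and 0.82 in the labelled libraries (-0.81 ± 0.28; adjusted p = 0.12). The library kit marks strand, but whether counting used it is not given, so reads from past the end of Ucp2 cannot be told apart from Dnajb13 reads.

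The genes farther out gave other values. C2cd3, 2830 bases before Ucp3, was lower with forskolin in NFIA than in control cells (-0.59 ± 0.13; adjusted p = 7.1e-04) and higher in the labelled tissue (0.83; adjusted p = 0.022). Chchd8 was called in none of the 5 contrasts computed for neighbours, and Rab6, Mrpl48 and Gm15683 share 1 listed locus, of which Rab6 alone was called (-0.54 at day 7; adjusted p = 6.4e-04). D630004N19Rik and Gm14382 are listed at 0 in every group on average. Near Ucp1 on chromosome 8, Elmod2, 14565 bases past it, rose in NFIA cells at day 7 from 7.44 ± 0.560 to 16.6 ± 1.02 FPKM (1.06; adjusted p = 5.0e-07), while Ucp1 stayed at or below 0.13 FPKM. Tbc1d9, 17408 bases before Ucp1, read 1.78 ± 0.178 FPKM in NFIA and 0.433 ± 0.0814 in control cells with forskolin. Gm10645, 4933434I20Rik, Gm15660 and Clgn averaged at most 0.08 FPKM in every group.

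**Figure D5:**
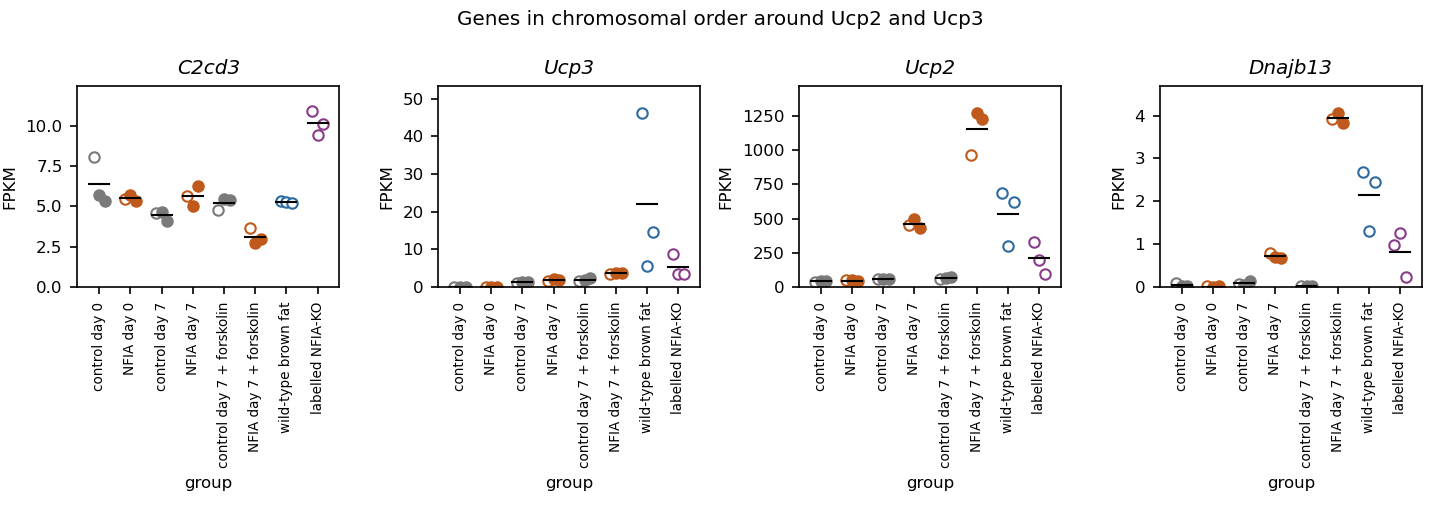
Points are libraries and lines group means in FPKM for 4 adjacent genes, each on its own scale. In FPKM as deposited, Ucp2 and Dnajb13 are both highest in NFIA cells with forskolin. C2cd3 is highest in tissue labelled NFIA-KO and Ucp3 in wild-type tissue.

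The genes whose log2(FPKM + 1) followed each member most closely are given as a description. Over the 18 C2C12 libraries, of 11924 protein-coding genes, Irf4 was closest to Ucp1 (Pearson r = 0.996). Next came BC057022, Wfdc12, Nr4a3 (an orphan nuclear receptor induced by cAMP) and Fgl2. In these cells Ucp1, Irf4, BC057022, Wfdc12 and Fgl2 reached 1 FPKM only in NFIA libraries with forskolin. The filter kept them through that group, so their high r was largely set by it. For Ucp2 these were Sema3g (r = 0.995), 1810011O10Rik, Rbpms, Tapt1 and Pck1, which makes glycerol precursors in fat cells. For Ucp3 they were Pfkfb3, a regulator of glycolysis (r = 0.987), Adamts15, Trp53inp2, Serinc3 and Hist1h1c. Over all 24 libraries, of 12852 genes, the order changed: Kdr, a receptor of endothelial cells, was closest to Ucp1 (r = 0.996), followed by S100a9, Dlst, Kif26a and Fes. Brp44l, a subunit of the mitochondrial pyruvate carrier, was closest to Ucp2 (r = 0.970), then Clstn3, Ywhag, 1810011O10Rik and Tgoln1, and Mrpl50 to Ucp3 (r = 0.929), then Trp53inp2, Pex19, Coq5 and Adora1. Libraries of a group share their source, so each r rests largely on differences between the 8 groups. Among the members, r over the 18 C2C12 libraries was 0.80 for Ucp1 with Ucp2, 0.64 for Ucp1 and Ucp3 and 0.79 for Ucp2 and Ucp3.

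By mean level of FPKM as deposited, the order of the groups differed between members. Library sums of FPKM were higher in NFIA cells with forskolin than in tissue, and the order was not computed after rescaling. For Ucp1 it was wild-type tissue, tissue labelled NFIA-KO and NFIA cells with forskolin, with no overlap between neighbours, and then groups at or near 0. For Ucp2 NFIA cells with forskolin led at 1156 ± 165 FPKM, followed by wild-type tissue at 536 ± 210 and NFIA cells at day 7 at 461 ± 32.1, whose values overlap. Below them came labelled tissue at 208 ± 117, control cells with forskolin at 62.6 ± 7.97 and control cells at day 7 at 58.2 ± 0.591, which overlap, and both day 0 groups, which overlap at 45.2 ± 3.18 and 42.0 ± 4.64. For Ucp3 both tissue groups led, at 22.1 ± 21.3 and 5.20 ± 3.03 FPKM. They overlapped each other, and the labelled tissue overlapped NFIA cells with forskolin at 3.60 ± 0.168. Control cells with forskolin, at 1.86 ± 0.355, overlapped NFIA cells at day 7, at 1.79 ± 0.307, and control cells at day 7 lay apart at 1.25 ± 0.172.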

How the data were processed

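Stranded TruSeq mRNA libraries were prepared from RNA purified by Trizol and RNeasy, per the labels' protocols. The deposited values are FPKM per gene, 1 table per library, which the authors made with Cufflinks after TopHat, with mm9 as the build, per the submitters' processing notes. Program versions, annotation and strand setting were not given in the sources used here. Entries of 1 symbol at overlapping loci were summed, and loci were shifted to count from 1. Groups follow the labels. The table headers carry an earlier date (12 libraries) or a later one (12), and what was done on these dates is not given. The earlier date is on all tissue libraries and on the C2C12 libraries without a number in their title, called replicate 1 here.

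After a log2(FPKM + 1) transform, limma 3.58.1 (R 4.3.3) was run with a variance trend in a fit of 18 C2C12 libraries (14351 genes) and another of 6 tissue libraries (13618 genes). P-values are two-sided. The procedure was tested on simulated data. The members and the 12 gene lists were chosen with earlier results of these data known, so list counts are descriptions. Named were the members, Nfia, per list up to 3 called genes with the largest change and no overlap and up to 2 with the highest mean, genes within 100 kb and the 5 most alike. The text prints part of these, and gives some of them (such as Ppargc1a, Irf4 and Cidea) also in comparisons where the rule did not name them, chosen with values seen. An item of 1 list is not reported here. GENCODE M21 gave gene class and strand by ID. Promoters matched 3 of 3 members by symbol.

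Also tried were quantile normalization, a pseudocount of 0.1, median-of-ratios rescaling, every gene without a filter, no variance trend, only the groups compared, a replicate block, numbered C2C12 libraries only, each library left out, and Spearman's correlation. Chosen after seeing the data were header date as a term, a filter at 2 libraries and, for tissue, no pseudocount.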

Additional observations from a re-analysis of the deposited data

Results flagged for a closer look

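The effect of NFIA on Ucp2 differed between days by 2.85 (interaction, limma adjusted p = 2.6e-09), with a difference of 0.11 at day 0 and 2.96 at day 7. For Ucp3 the NFIA effect differed between days by 0.34 (adjusted p = 0.0497), with -0.03 at day 0 and 0.31 at day 7. Forskolin changed Ucp2 by 1.22 more in NFIA than in control cells (adjusted p = 1.1e-04). For Ucp1, which the expression filter kept only through NFIA libraries with forskolin, this difference was 1.99 (adjusted p = 6.1e-08 on every gene with no filter). For Ucp1 all 3 NFIA libraries with forskolin were above 2.7 FPKM and all 6 control libraries at day 7 were listed at 0.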

How the results depend on the processing

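Over 482 recomputed member values, 452 kept their direction and their side of the threshold, 16 lost a call, 12 gained one and 2 changed sign. The sign changed for Ucp2 between NFIA and control cells at day 0, to -0.0049 in the numbered libraries alone under either filter, where it was not called (adjusted p = 0.98 and 0.99). The day 7 and forskolin differences of Ucp2 between NFIA and control cells kept their calls under every alternative that gave a value. Ucp1 had no value where a library of NFIA cells with forskolin was left out or in the numbered libraries alone, since it then failed the filter. Ucp1 in tissue kept -1.73 and lost its call with no expression filter (adjusted p = 0.13). Its range without 1 library was -1.90 to -1.49.

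The difference of the NFIA effect on Ucp3 between days lost its call with no expression filter (0.34; adjusted p = 0.12), in the numbered libraries alone (0.36; adjusted p = 0.077) and without most single libraries (0.26 to 0.36). Ucp3 between NFIA and control cells at day 7 lost its call without control replicate 1 or NFIA replicate 2 (0.25 and 0.23). The forskolin response of Ucp3 in control cells gained a call with quantile normalization (0.36), median-of-ratios rescaling (0.34) and header date as a term (0.34). Without control replicate 1 with forskolin it gained a call too (0.41, in a range of 0.24 to 0.41 without 1 library). Its difference between cells gained one with the same settings (0.50, 0.39 and 0.38) and without control replicate 1 at day 7, NFIA replicate 2 at day 7 or control replicate 3 with forskolin (0.44 to 0.48, in a range of 0.31 to 0.48). The cause was not tested.

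C2C12 titles give only the numbers 2 and 3, nothing says what a number shares, and fewer than 3 numbered pairs exist, so the numbers were not taken as pairs. Same-numbered C2C12 libraries deviated together with r of 0.081 to 0.28, and the unnumbered ones, all of the earlier header date, with 0.29 to 0.43. In tissue r was -0.009 to 0.14. Not every library correlated best with its own number. With the replicate block, the control response of Ucp3 was 0.34 and its difference between cells 0.38, both called, and no other member call changed.

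Counts of called genes moved more than members. The tissue count of 973 was 75 with no filter and 19, 53, 148, 109 and 541 without wild-type replicate 1 or 3 or labelled replicate 1, 2 or 3. The day 0 count of 3036 was 5159 with the block, 1872 with only the groups compared and 5303 with header date. For forskolin in control cells the count of 570 became 1260, 239 and 1343, and 363 or 361 without replicate 2 of either group. For the difference in forskolin response 2890 became 5041 with the block, 5149 with header date and 4556 or 4626 in the numbered libraries. Spearman's correlation kept 0 or 1 of the 5 most alike genes of a member. Read totals are unknown, so low values such as Ucp1 in NFIA cells at day 7 have no counting error.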
